A study of Canis lupus familiaris with 5 samples.

Results

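Plasma cells are the antibody-secreting end stage of the B lineage, and bone marrow is a main home of the long-lived ones. They were read here from droplet single-cell RNA libraries of the whole bone marrow of 3 healthy dogs (genotype Wt, age not given in the sources used here). Marrow was flushed from the femur, red cells were lysed, and the suspension was loaded without a sort. A second kind of library held CD34-sorted marrow, which per the labels' protocols came from the dogs of marrows 2 and 3. Plasma cells were chosen by measured transcript counts: a whole-marrow barcode was taken when it had at least 200 genes, at most 10% of its transcript counts (UMIs, 1 per captured molecule) from mitochondrial genes, at least 0.2% from JCHAIN, at least 2 MZB1 UMIs, no MS4A1 or FLT3 UMI and at most 2 VPREB1 UMIs. This gave 58 cells of the 16223 whole-marrow barcodes that passed the limits on genes and mitochondrial share, among 27953 barcodes in all 5 libraries. There were 12 in marrow 1, 34 in marrow 2 and 12 in marrow 3. Each marrow is 1 library from 1 dog, cells of a marrow are not replicates of each other, and comparisons were made over marrows: 3 for B cells and pre-B cells, and 2 for the third comparator.

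When a B cell becomes a plasma cell it turns its protein output over to a single antibody. Each antibody pairs a heavy chain with a kappa or a lambda light chain, and allelic exclusion generally holds a cell to a single productive heavy and a single productive light chain. The chains are threaded into the endoplasmic reticulum (ER), folded by chaperones, joined by disulfide bonds, glycosylated and exported through the Golgi. JCHAIN links antibody units into the polymers of IgM and IgA. The transcription factors IRF4, PRDM1 (Blimp-1) and XBP1 drive this state and shut off the B cell factor PAX5, and the receptor TNFRSF17 (BCMA) passes survival signals to plasma cells of the marrow.

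The label was checked against genes that the selection did not use. TNFRSF17 had at least 1 UMI in 56 of the 58 cells, IRF4 in 53, PRDM1 in 47 and XBP1 in 45. With each cell thinned to 1000 UMIs, TNFRSF17 was seen in 58.3%, 32.4% and 33.3% of plasma cells in marrows 1, 2 and 3. In barcodes rich in the neutrophil granule gene LTF, which should lack it, the thinned shares were 0.155%, 0.0431% and 0.0833%, with 176, 25 and 12 shallower barcodes left out and no plasma cell. Before thinning the shares were 100%, 97.1% and 91.7% in plasma cells, at median depths of 8258, 14317 and 20991.5 UMIs, and 0.247%, 0.171% and 0.124% in LTF-rich barcodes, at median depths of 2756, 3394.5 and 4731.5. SDC1, the syndecan used to sort plasma cells in other species, was listed at 0 in marrows 1 and 3 and reached 8.98 UMIs per 1000000 (CPM) in marrow 2. CD38, another surface marker of plasma cells, was at 0 in the same marrows and at 10.8 CPM in marrow 2. CD79A, a subunit of the B cell receptor, was present in all 58 cells, but LTF-rich barcodes also carried it at 2390 to 2988 CPM, against 3302 to 6734 in plasma cells, so it does not mark the lineage in these files. All 6 tested stem and progenitor markers, CD34 and KIT among them, were at 0 in all 58 cells, and PAX5 and CD22 were at 0 as well. Neutrophil transcripts were present: the 10 listed neutrophil genes together gave 2 to 2358 UMIs per cell with a median of 11. In 8 cells (2, 4 and 2 in marrows 1, 2 and 3) a single neutrophil gene made up 1% or more of the UMIs. The genes read for this were those of the neutrophil and neutrophil progenitor lists and S100A8. That limit was chosen after the values were seen, and a cell that met it is said below to have 1% or more neutrophil transcripts. A doublet caller marked 426, 168 and 151 barcodes of the 3 marrows and none of the 58.

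Plasma cells made up 0.164% of the passing barcodes of marrow 1 (12 of 7295, exact Clopper-Pearson 95% interval 0.0850% to 0.287%). The share was 0.742% in marrow 2 (34 of 4585, 0.514% to 1.03%). It was 0.276% in marrow 3 (12 of 4343, 0.143% to 0.482%). The interval of marrow 2 lies above those of the other marrows, which overlap each other. That separation was lost from marrow 3 with JCHAIN at 0.1% (0.587% to 1.14% against 0.246% to 0.654%), from marrow 1 with no MZB1 minimum (0.532% to 1.06% against 0.357% to 0.698%) and from both with at most 5% mitochondrial UMIs (0.134% to 0.513% in marrow 2 against 0.0104% to 0.148% and 0.0202% to 0.286%). The intervals cover counting error only, and differences between dogs cannot be told apart from differences between single libraries. In the first CD34-sorted library 0 of 4720 barcodes met the rule, which allows a share of up to 0.0636% (3 counts of the total; the exact interval ends at 0.0781%), and in the second 1 of 3765 (0.0266%) did. That 1 barcode was called a doublet, leaving 0 of 3652 once doublets were removed. It had no CD34 UMI and carried 719 IGHM UMIs and 8225 of ENSCAFG00000031806, an unnamed feature described below. Library pairs shared 4 to 12 barcode sequences, and 1 plasma barcode of marrow 1 was also present in another library.

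The limits of the rule pass through a continuum in some directions and not in others. The JCHAIN share of the 58 cells ran from 0.201% to 3.44% with a median of 0.744%, and its lowest values in marrows 1, 2 and 3 were 0.203%, 0.304% and 0.201%. Barcodes that missed only the JCHAIN limit numbered 25, 9 and 8, and the highest of them lay at 0.164%, 0.143% and 0.196%. Those that missed only the mitochondrial limit numbered 14, 5 and 5. Those that missed only the MZB1 limit were 25 in marrow 1, 1 in marrow 2 and 0 in marrow 3. Barcodes that missed only by carrying MS4A1, the gene of the B cell surface protein CD20, numbered 13, 17 and 9, with medians of 1, 1 and 2 MS4A1 UMIs. No barcode was lost through VPREB1 alone and 2 through FLT3 alone. MZB1 itself, an ER protein that aids antibody assembly, had a median of 3 UMIs per cell in marrow 1, 13 in marrow 2 and 8.5 in marrow 3. These are the values that chose the cells and are given as a description.

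Plasma cells held a median of 14440.5 UMIs (5693 to 49436) and 1772 genes (1170 to 3647). B cells of the same marrows were taken as barcodes within the same limits on genes and mitochondrial share. They had at least 2 MS4A1 UMIs, under 0.2% of UMIs from JCHAIN, no FLT3 UMI and at most 2 VPREB1 UMIs. Their median depths were 3082.5, 2396 and 3888 UMIs. The total depth of the whole-marrow libraries was 46114431 to 54074420 UMIs. Without IGHM, IGKC and the 2 unnamed features described next, the medians of plasma cells were 6634.5, 7630.5 and 10015 UMIs in marrows 1, 2 and 3. Those of B cells were 3048, 2395 and 3776.

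IGHM, IGKC and a pair of unnamed features took a large share of the UMIs of most of these cells. The files name 2 chains that matter here, IGHM, the heavy chain of IgM, and IGKC, the kappa light chain. The pair has no gene name in the files and was not matched in the RefSeq table, so its identity was not settled: ENSCAFG00000030258 and ENSCAFG00000031806. They are described below beside the named chain whose high cells they were mostly low in, IGHM for the former and IGKC for the latter, and whether they are heavy or light chains was not tested. Together the 4 features took 1.24% to 77.9% of a cell's UMIs with a median of 39.5%. The medians were 16.6%, 42.8% and 54.2% in marrows 1, 2 and 3, and in 55 of the 58 cells the share was 5% or more. Below, the 4 are called antibody features for short. In the summed plasma cells ENSCAFG00000031806 alone gave 21.3%, 17.3% and 42.8% of all UMIs. Per cell its medians were lower, at 2.13%, 8.52% and 34.6%, and in marrow 1 a pair of cells held 19429 and 8288 of its 29862 UMIs. In the summed B cells of the same marrows it gave 7.75%, 9.17% and 6.97%, and in LTF-rich barcodes 0.279% or less.

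Every one of the 58 cells carried exactly 1 of IGHM, ENSCAFG00000030258 and a further unnamed feature, called the third, at 1% of its UMIs or more. It was IGHM in 13 cells, ENSCAFG00000030258 in 43 and the third unnamed feature in 2, both of marrow 2. The limit of 1% was set after the values were seen, and no cell passed it for more than 1 of the 3. In the 43 cells rich in ENSCAFG00000030258 that feature ran from 598 to 5458 UMIs with a median of 2636, while IGHM was at 0 in 39 of them and never above 26 UMIs. In the 13 IGHM cells IGHM ran from 106 to 2290 UMIs with a median of 722, while ENSCAFG00000030258 stayed at 0 to 61 UMIs. Cells were sorted by these same features, so the gap between the 2 kinds is a description of how far each lay from the limit. In the 2 remaining cells the third feature made up 17.95% and 35.9% of the UMIs.

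**Figure D1:**
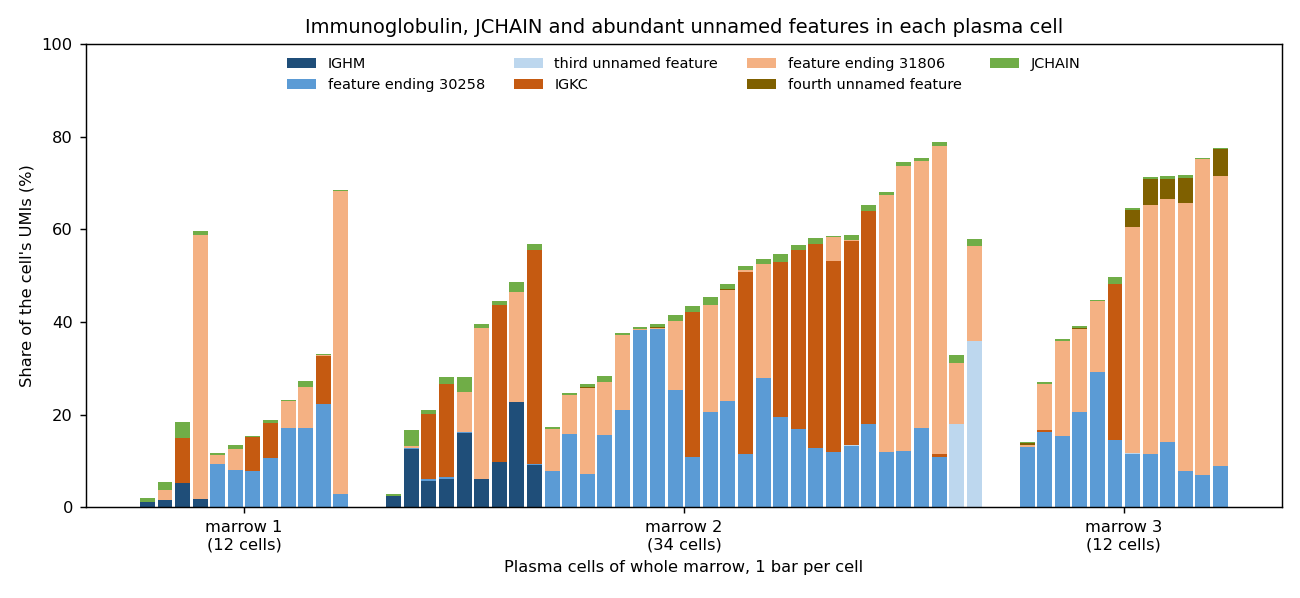
Share of each plasma cell's UMIs (percent) from IGHM, IGKC, JCHAIN and the unnamed antibody-like features, stacked, with 1 bar per cell for 58 cells in blocks by marrow. Each bar has 1 main colour of IGHM, ENSCAFG00000030258 or the third feature at its base, no bar of marrow 3 starts with IGHM, and the fourth unnamed feature shows in 5 bars of marrow 3.

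By marrow, IGHM cells numbered 4 of 12 in marrow 1, 9 of 34 in marrow 2 and 0 of 12 in marrow 3. Cells with ENSCAFG00000030258 numbered 8, 23 and 12. Whether this split differs between dogs was not tested, and marrow 3 gave 12 cells. JCHAIN, which served in the rule, had a median share of 1.35% in the IGHM cells and 0.670% in the ENSCAFG00000030258 cells. Within marrow 1 the medians were 1.21% and 0.347%, and within marrow 2 they were 1.35% and 0.946%, with overlapping ranges in both.

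IGKC and ENSCAFG00000031806 were seldom high in the same cell. The kappa gene IGKC reached 1% in 16 cells without ENSCAFG00000031806, and ENSCAFG00000031806 did so in 35 cells without IGKC. By marrow the IGKC cells numbered 4, 11 and 1 and the ENSCAFG00000031806 cells 7, 18 and 10. In the 16 IGKC cells IGKC ran from 528 to 13916 UMIs with a median of 5022.5 (7.37% to 46.2% of UMIs), while ENSCAFG00000031806 ran from 0 to 82. In the 35 others ENSCAFG00000031806 ran from 160 to 29937 UMIs with a median of 3047 (2.01% to 68.2%), while IGKC was at 0 in 26 of them and at most 167. As above, the cells were sorted by these features. A single cell of marrow 2 had both, with 11387 IGKC and 1410 ENSCAFG00000031806 UMIs. In the 6 cells with neither, ENSCAFG00000031806 was at 5 to 102 UMIs and IGKC at 0 or 1.

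IGHM and ENSCAFG00000030258 were each seen with IGKC and with ENSCAFG00000031806. Of the 13 IGHM cells 5 carried IGKC, 5 carried ENSCAFG00000031806 and 3 neither. Of the 43 ENSCAFG00000030258 cells 11 carried IGKC, 28 carried ENSCAFG00000031806, 1 both and 3 neither. Both cells with the third unnamed feature carried ENSCAFG00000031806.

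**Figure D2:**
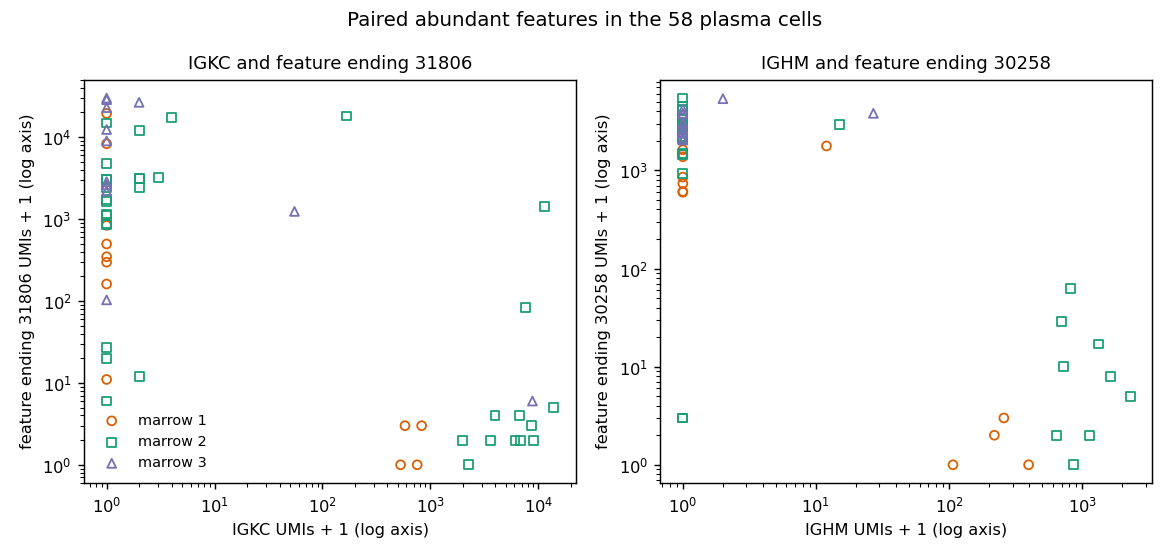
UMIs plus 1 on log axes in each of the 58 plasma cells, for IGKC against ENSCAFG00000031806 (left) and IGHM against ENSCAFG00000030258 (right), with marrows as colours and shapes. Most cells lie near 1 axis or the other, and 1 cell of marrow 2 is high in both IGKC and ENSCAFG00000031806. Some others lie off the axes, such as a cell of marrow 2 with 167 and 18046 UMIs of these. On the right a cell of marrow 2 has 814 IGHM and 61 ENSCAFG00000030258 UMIs, and the 2 cells with the third feature lie near the origin.

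In marrow 3 a further unnamed feature came with ENSCAFG00000031806 in 5 of the 10 cells rich in the latter. It passed 1% of the UMIs in 5 cells, all of marrow 3, at 3.71% to 5.66%. In these cells it held 7.62 to 10.1 UMIs for each 100 of ENSCAFG00000031806, which itself was at 48.7% to 62.7%. In the other 53 cells it had 49 UMIs at most, and it was at 0 in the cell of marrow 3 with the most ENSCAFG00000031806 (29937 UMIs). The B cells of marrow 3 also held it at 11533 CPM, against 1056 and 125 in marrows 1 and 2. IGLV2-33, the 1 lambda variable gene the files name, was at 0 in the plasma cells.

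Each plasma cell also carried a large share of ER folding genes. To keep antibody counts from setting the scale, shares were taken of the UMIs outside JCHAIN, IGHM, IGKC and 4 unnamed antibody-like features, a choice made after the values were seen. The 34 ER chaperones and folding enzymes in the files made up 0.949% to 7.48% of these UMIs with a median of 2.87%. The medians were 4.22%, 2.81% and 2.33% in marrows 1, 2 and 3. B cells with under 5% of their UMIs from the 4 antibody features (under 5% antibody transcripts below) had a median of 0.234%, and 6 of 146 reached the lowest plasma cell. Of the pre-B cells (at least 3 VPREB1 UMIs, at most 1 MS4A1 UMI, no CD34 and under 0.2% JCHAIN) 3 of 428 did so. Of the 40 FLT3, IRF8 and TCF4-positive cells, a gate for the plasmacytoid dendritic lineage, none did, with a highest value of 0.788%. The plasma cells thus overlapped little with these classes as they were chosen, with JCHAIN-rich and antibody-rich cells kept out of the B cells. Of the barcodes that missed the plasma cell rule only by carrying MS4A1, 38 of 39 reached the lowest plasma cell. The overlap with B cells therefore depends on which cells that class leaves out.

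The barcodes just outside the rule were alike in this respect. Those that missed only the JCHAIN limit had a median ER folding share of 3.78%. Those that missed only by carrying MS4A1 had 2.75%, those over the mitochondrial limit 2.96% and those under the MZB1 limit 1.76%. Among the 166 MS4A1-positive B cells, 20 had 5% or more antibody transcripts, and their median ER folding share was 2.62%, with 14 of the 20 at or above the lowest plasma cell. The B cell class therefore holds antibody-rich cells, and the comparison with B cells is also given without them.

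**Figure D3:**
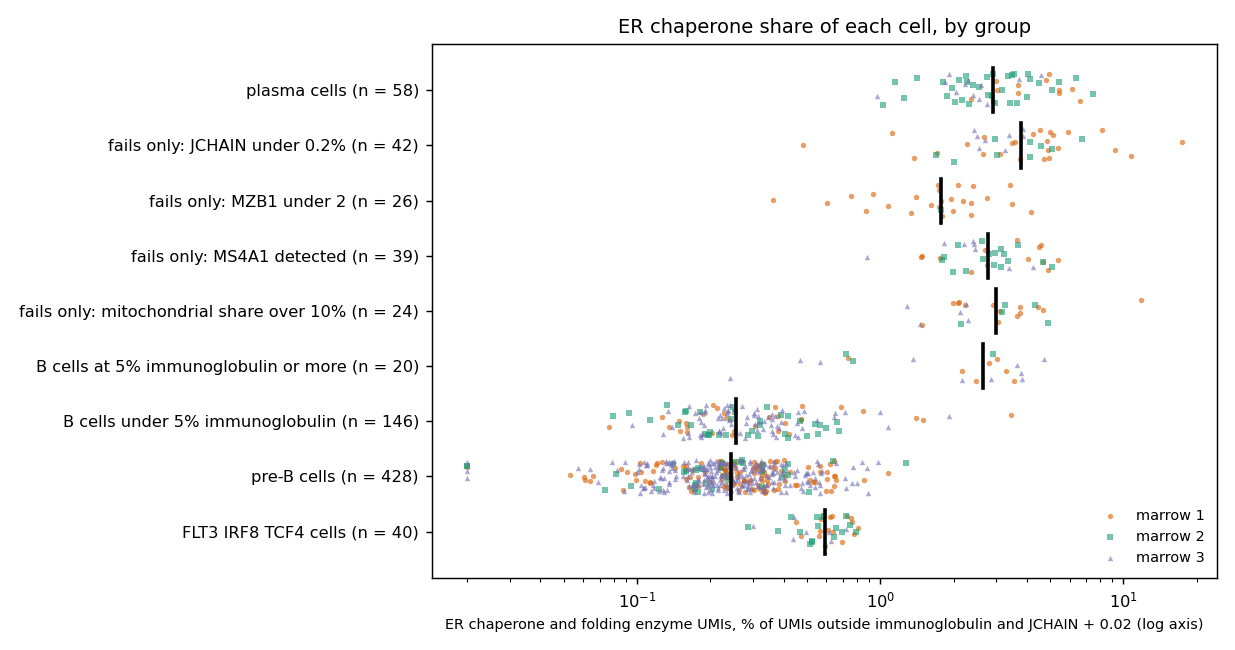
ER chaperones and folding enzymes as a percent of the UMIs outside the antibody features, on a log axis after adding a small constant (points at the left edge are 0), with 1 point per cell and a bar at each class's median. The 58 plasma cells lie between 0.949% and 7.48%, while B cells under 5% antibody transcripts centre on 0.234%.

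The genes that carry the protein-conducting channel behaved likewise. The translocon and signal recognition list held 1.18% to 4.70% of the non-antibody UMIs in plasma cells (median 2.59%). In B cells under 5% antibody transcripts its median was 0.491%, and 4 of 146 reached the lowest plasma cell. It overlapped with 1 of 428 pre-B cells and 5 of 40 FLT3, IRF8 and TCF4-positive cells. ER-associated degradation, which returns misfolded chains to the cytosol for destruction, separated the classes less: plasma cells had a median of 0.586% and a lowest value of 0.167%, which 56 of 146 such B cells, 204 of 428 pre-B cells and 18 of 40 FLT3, IRF8 and TCF4-positive cells reached. MHC class II, the machinery by which B cells present antigen, ran the other way. It had a median of 0.0241% in plasma cells, with 14 of the 58 at 0, and 0.530% in these B cells, of which 29 of 146 were at or below the highest plasma cell (0.278%). So were 314 of 428 pre-B cells and 33 of 40 FLT3, IRF8 and TCF4-positive cells.

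Summed over each marrow, plasma cells were compared with the B cells of the same marrow by edgeR's quasi-likelihood test with the dog as a block, the p-values being adjusted by Benjamini-Hochberg over all genes. The B cell sums held 38, 39 and 89 cells. Of 2563 genes tested, 633 (24.7%) passed at an adjusted p under 0.05, with 351 (13.7%) higher and 282 (11%) lower in plasma cells. Under DESeq2's scaling and test the split was 221 higher and 102 lower. Without the TMM scale factors it was 59 and 1297, and the median of all genes lay at -1.19 in place of -0.04 on the log2 scale, so that differences below are relative to a median near 0 set by TMM. Leaving out marrow 3 left 193 calls among 2709 tested genes (136 higher, 57 lower). Without marrow 1 there were 329 among 3323 (227 and 102), and without marrow 2 430 among 2791 (246 and 184). Calls thus fell over all genes, and list counts with a marrow left out are to be read beside these totals. Each of these fits leaves 1 residual degree of freedom, so its p-values rest mostly on the spread pooled over genes. The fit of all 3 marrows leaves 2. Its p-values thus also rest largely on that pooled spread and do not by themselves measure the spread between 3 dogs. Levels below are TMM-scaled CPM, given in the order of marrows 1, 2 and 3. Plasma cell sums lay at medians of 8258 to 20991.5 UMIs per cell and B cells at 2396 to 3888. At an equal 1000 UMIs per cell, 88 of the 388 genes then tested passed.

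Of the factors that drive the plasma cell state, XBP1, which expands the ER, was at 122, 213 and 323 in plasma cells and at 47.3, 16.4 and 28.4 in B cells. The groups do not overlap, and the log2 difference was 2.86 ± 0.41 (SE, adjusted p = 5.73e-06). Each SE here and below was computed from the log2 difference and the test's F value. It thus carries the spread pooled over genes and is not the spread over the marrows alone. IRF4, which starts the programme, was at 279, 266 and 241 against 117, 14.1 and 59.2, a log2 difference of 2.28 ± 0.46 (adjusted p = 0.00292). PRDM1, the repressor that ends the B cell programme, was at 264, 156 and 220 against 117, 14.1 and 68.3, a log2 difference of 1.91 ± 0.37 (adjusted p = 1.48e-04). Without marrow 3 the adjusted p of IRF4 was 0.0862 and that of PRDM1 0.0634, and with B cells rich in antibody transcripts left out that of PRDM1 was 0.120 at a log2 difference of 2.55. B cells of marrow 1 were the highest of the 3 B cell sums for each of these factors.

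TNFRSF17 was at 565, 448 and 647 in plasma cells and at 115, 2.35 and 51.2 in B cells. The groups do not overlap, but the B cell sums spread widely and the difference of 3.70 ± 1.01 did not pass (adjusted p = 0.116). With antibody-rich B cells left out it was 6.28 (adjusted p = 4.41e-09), without marrow 1 4.70 (0.0241) and without marrow 2 2.98 (3.25e-12). The coactivator POU2AF1 was at 365, 372 and 330 against 175, 21.1 and 132 and did not pass (1.97 ± 0.64, adjusted p = 0.0893). Its adjusted p was 0.0194 without those B cells and 0.0102 without marrow 2. TNFRSF13C, the BAFF receptor that keeps resting B cells alive, was lower, at 107, 68.5 and 82.5 against 280, 281 and 398 (log2 difference -1.90 ± 0.34, adjusted p = 1.90e-05). Over the 14 tested genes of the list of regulators and surface receptors, 4 were higher and 1 lower, with a median of 0.89, and without marrow 3 it was 2 of 17 higher.

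Genes of the ER were among the largest rises, beside genes of other kinds such as the keratin KRT18. SELENOM, a selenium protein of the ER lumen, had 134 UMIs in the plasma cells and 9 in the B cells, at 114, 237 and 193 against 2.06, 7.04 and 5.69. Its log2 difference of 5.11 ± 0.47 was the largest rise among the named genes outside the rule (adjusted p = 1.73e-12). PRDX4, a peroxidase that uses the peroxide of disulfide formation, was at 1673, 1666 and 2201 against 267, 150 and 224 (3.14 ± 0.29, adjusted p = 3.07e-12). TXNDC5, a disulfide isomerase, was at 515, 2572 and 3838 against 148, 106 and 284, a wide spread over marrows, and its difference of 3.42 ± 0.72 stood near the threshold (adjusted p = 0.0484, 0.0883 without marrow 3 and 0.178, at a difference of 5.92, without the antibody-rich B cells). Of the 25 ER chaperones and folding enzymes tested 21 were higher and none lower, with a median log2 difference of 2.22 against -0.04 over all genes. HSPA5 (BiP), which holds unpaired heavy chains, was at 1001, 638 and 289 against 261, 70.4 and 115 (2.13 ± 0.36, adjusted p = 1.13e-05). HSP90B1, at 11760, 6094 and 4698 against 3135, 460 and 2010, was the most abundant of those quoted and did not pass (2.26 ± 0.75, adjusted p = 0.196).

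The other steps of the secretory route moved the same way. Signal recognition and translocon genes were higher in 15 of 19 (median 1.68). SSR4, a subunit of the complex beside the channel, was at 5033, 3376 and 4966 against 794, 561 and 847 (2.60 ± 0.23, adjusted p = 9.43e-13). N-glycosylation genes were higher in 13 of 16 (median 1.51), among them the mannosidase MAN1A1, at 1344, 464 and 777 against 413, 42.2 and 171. ER-associated degradation genes were higher in 11 of 14 (median 1.68), with SEL1L, the adaptor of the degradation ligase, at 486, 387 and 468 against 105, 30.5 and 70.5 (2.81 ± 0.34, adjusted p = 7.63e-09). Genes of ER to Golgi transport were higher in 18 of 27 (median 1.18). LMAN1, a cargo receptor of that step, was at 1687, 796 and 887 against 625, 70.4 and 328. None of these 4 lists had a gene called lower. Without marrow 3 the counts fell to 9 of 20 translocon, 5 of 16 glycosylation, 7 of 16 degradation and 5 of 27 transport genes, with medians of 1.74, 1.51, 1.69 and 1.37. Over all genes 136 of 2709 were then higher. Without marrow 1 the list counts were 8 of 19 for glycosylation and 9 of 30 for transport (227 of 3323 over all genes). Without marrow 2 they were 9 of 28 for transport (246 of 2791 over all genes). Without TMM the median of the ER to Golgi list was 0.00.

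Fewer genes could be tested in the lists of stress and of amino acid supply. In the list of stress sensors and the integrated stress response 3 of 6 were higher: ATF4, a translationally controlled stress factor, EAF2, and ELL2, an elongation factor that favours the secreted form of the heavy chain. ELL2 was at 64.3, 57.98 and 68.8 against 41.1, 4.69 and 18.2 (1.77 ± 0.48, adjusted p = 0.00488), and did not pass without marrow 2 (0.0937) or marrow 3 (0.158). ATF4 did not pass without marrow 3 (0.106), and without marrow 1 the list had 5 of 10 higher. None of the 12 tested genes of amino acid supply and tRNA charging passed in either direction (median 0.46). FAS, a death receptor, was the 1 of 4 tested survival and apoptosis genes that passed, at 42.9, 47.4 and 75.7 against 20.6, 7.04 and 13.7. Beyond these lists, KRT18 was at 193, 116 and 89.4 against 12.3, 0 and 20.5 (3.47 ± 0.57, adjusted p = 0.00100, and 0.0749 without marrow 1), and the small membrane protein SMIM1 at 100, 81.7 and 75.7 against 14.4, 0 and 9.10.

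**Figure D4:**
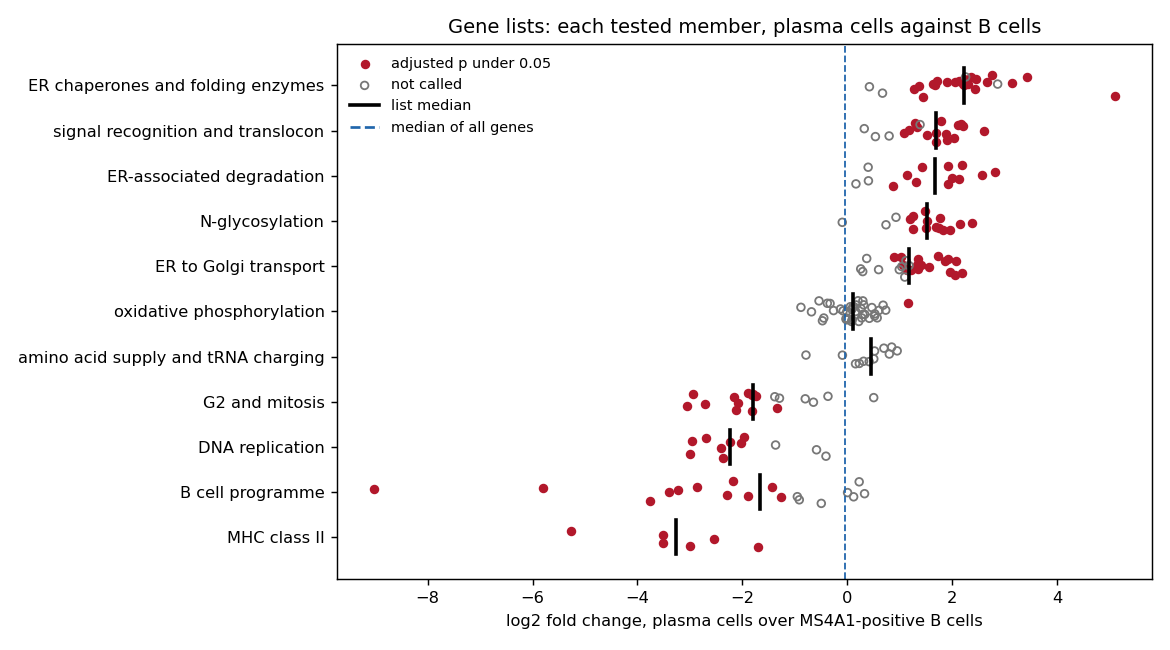
Log2 difference between plasma cells and B cells for each tested gene of a list, filled where the adjusted p was under 0.05, with the list's median as a bar, the median of all genes as a dashed line and genes at 0 in plasma cells drawn at their bound. The medians of the secretory lists lie between 1.18 and 2.22, and those of MHC class II, B cell, replication and mitosis genes between -3.26 and -1.66.

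The B cell programme was lower. PAX5, which fixes B cell identity, had no UMI in the 58 cells and 450 in the 166 B cells, where it was at 82.2, 225 and 357, so that it was at least 55.7-fold lower with a floor of 3 UMIs over the group. CD22, an inhibitory receptor, and CD40, the receptor for T cell help, were at 0 as well, at least 13.5-fold and 10.5-fold lower. LTB, a lymphotoxin subunit, had 1 UMI against 2196, an 815-fold lower level with a counting interval of 146 to 3.22e+04. NIBAN3 was at 0 against 318 UMIs (at least 39.3-fold lower). Of the 18 tested genes of the B cell list 11 were lower and none higher, with a median of -1.66, and without marrow 3 it was 7 of 18. Genes at 0 enter that median with fitted values, and it stays at -1.66 with those genes at their bounds. CD79A, of the same list, was at 6763, 5706 and 7340 against 5027, 5408 and 5238 and did not pass (adjusted p = 0.221).

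Antigen presentation was lower throughout the tested genes. All 6 tested MHC class II genes were lower (median -3.26). DLA-DRA, the alpha chain of the canine class II DR molecule, was at 107, 97.5 and 41.3 in plasma cells and at 389, 732 and 954 in B cells (a log2 difference of -2.9996 ± 0.41, adjusted p = 3.16e-06). CD74, which escorts class II through the ER, was at 35.7, 103 and 96.3 against 82.2, 319 and 410 (-1.71 ± 0.35, adjusted p = 1.87e-04). The CD74 level of B cells in marrow 1 lay below those of plasma cells in marrows 2 and 3, so its groups overlap across dogs, and without marrow 3 it did not pass (adjusted p = 0.0768). The list gave a summed level of 199 to 306 in plasma cells and 1067 to 2560 in B cells.

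Cell cycle genes were lower in the sums too, though the typical cells of the 2 classes lay close. Per cell, G2 and mitosis genes had a median of 0.0440% of the non-antibody UMIs in plasma cells. In B cells under 5% antibody transcripts it was 0.0534%. Of these B cells 138 of 146 lay at or below the highest plasma cell (0.495%), and the highest B cell was at 3.23%. Of the tested genes of DNA replication 8 of 11 were lower (median -2.23) and of G2 and mitosis 12 of 18 (median -1.80), with none higher in either. Without marrow 1 these counts were 5 of 16 and 2 of 22, and without marrow 3 they were 5 of 20 and 1 of 20, with medians of -1.91 and -1.34, and of -2.12 and -1.73. Over all genes 102 of 3323 and 57 of 2709 were called lower in these fits. MCM6, a helicase subunit, was at 14.3, 23.7 and 6.88 against 82.2, 113 and 54.6 (-2.40 ± 0.47, adjusted p = 8.57e-05). TOP2A, a topoisomerase of dividing cells, was at 7.15, 55.4 and 20.6 against 208, 82.1 and 184 (-2.11 ± 0.60, adjusted p = 0.0281), and missed the threshold with the antibody-rich B cells left out (0.0511), without marrow 1 (0.157) and without marrow 3 (0.235). By the same rule in both classes, at least 3 UMIs and 0.1% of UMIs from G2 and mitosis genes, 13 of 38, 6 of 39 and 20 of 89 B cells carried mitotic transcripts. A few plasma cells did so: 7 of 58 (2, 4 and 1 by marrow). Of these 7, 4 were also among the 8 cells with 1% or more neutrophil transcripts, and the part of that in the count was not tested. The 7 cells were too few for a test between cycling and other plasma cells.

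Metabolic and stress lists stood closer to the median of all genes. Oxidative phosphorylation had 1 of 39 genes higher, NDUFB2, and a median of 0.12. Glycolysis had 2 of 5 lower, LDHB and HK1. Of the 8 tested immediate early and heat shock genes HSPB1 was higher, at 85.8, 140 and 138 against 16.5, 49.3 and 22.8 (2.08 ± 0.38, adjusted p = 3.01e-05). The cytosolic chaperones HSPA8, HSP90AA1, HSP90AB1 and HSPH1 were lower, HSP90AB1 at 372, 669 and 564 against 1468, 1405 and 1006 (-1.28 ± 0.29, adjusted p = 6.32e-04). The chaperones of the ER and these chaperones of the cytosol thus lay on opposite sides. Without marrow 1, however, none of the 9 then tested genes of this list was called lower, with HSP90AB1 at -0.90 (adjusted p = 0.131), and without marrow 3 it was 2 of 8. Over all genes 102 of 3323 and 57 of 2709 were called lower in these fits. NDUFB2 did not pass without marrow 3 (0.149), nor LDHB without marrow 1 (0.112) or 3 (0.187), nor HK1 without marrow 2 (0.392) or 3 (0.230).

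**Figure D5:**
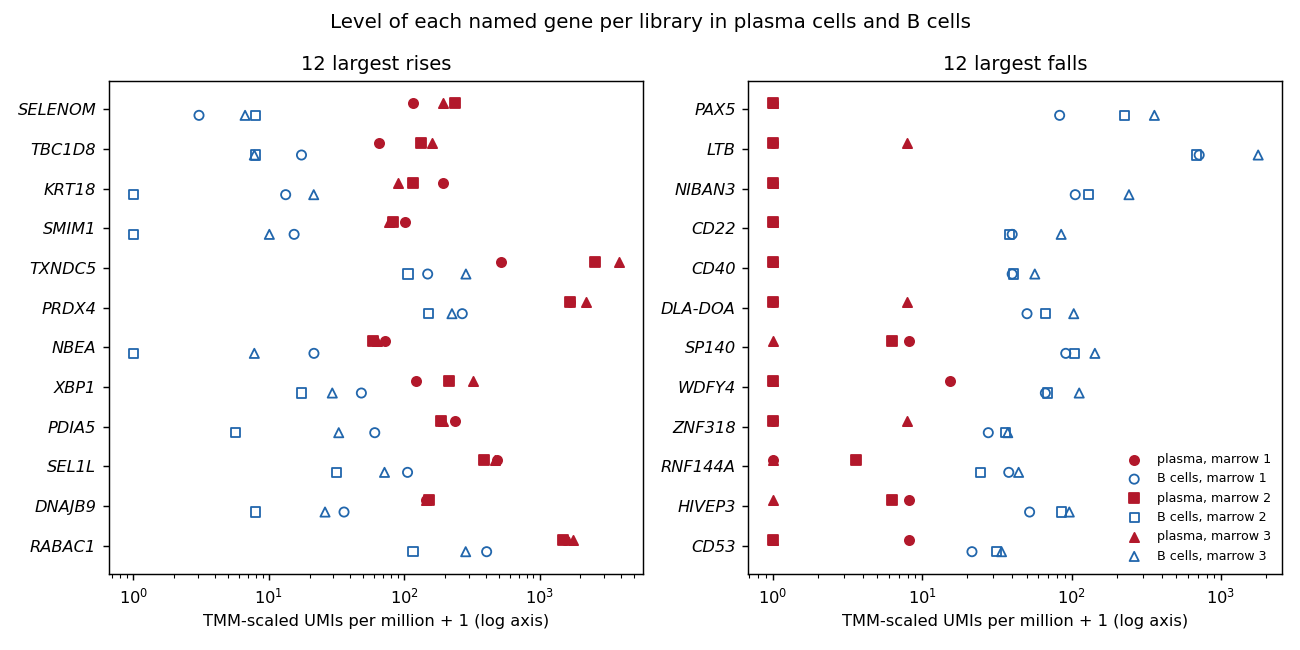
TMM-scaled CPM plus 1 (log axis) in the plasma cell sums (filled) and B cell sums (open) of the 3 marrows, for the 12 largest called rises and the 12 largest called falls. The 24 genes were chosen for the size of a called difference with the same direction in all 3 marrows, so their separation is no result. PAX5 is at 0 in all 3 plasma cell sums.

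Neutrophil transcripts were more abundant in plasma cell sums than in B cell sums. The listed genes summed to 9894 to 25692 in plasma cells and 1443 to 3944 in B cells, although only LTF of the 8 tested passed. With the 8 plasma cells, and the B cells, of 1% or more neutrophil transcripts left out, the ER folding list had 21 of 25 higher (median 2.30), the translocon list 16 of 19 (median 1.71) and MHC class II 6 of 6 lower. Mitosis genes then had 12 of 17 lower. With B cells under 5% antibody transcripts as the comparator, 22 of 25 ER folding genes were higher (median 2.93), 17 of 19 translocon genes were higher (median 2.23) and 6 of 6 MHC class II genes lower (median -3.29).

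Pre-B cells are the marrow's dividing B cell precursors, which carry the surrogate light chain VPREB1 and rearrange their antibody genes. Their sums held 137, 36 and 255 cells, and 1401 of 3714 genes (37.7%) passed, 644 (17.3%) higher and 757 (20.4%) lower in plasma cells. Without TMM the split was 138 and 2497, with a median of -1.69 in place of -0.19 over all genes. The plasma cell sums are the same cells as above, so this comparison is not independent of the one with B cells. Its fit too leaves 2 residual degrees of freedom, so its p-values rest largely on the spread pooled over genes. TNFRSF17 was at 634, 503 and 727 in plasma cells (the TMM scale is refitted for each comparison) and at 0.815, 0 and 0.955 in pre-B cells, a log2 difference of 9.43 ± 0.41 (adjusted p = 9.59e-18). KRT18 and SMIM1 had no UMI in the 428 pre-B cells and were at least 219-fold and 146-fold higher in plasma cells. FKBP11, a secretory proline isomerase of the ER, was at 2847, 2809 and 2847 against 53.8, 34.5 and 35.7 (6.10 ± 0.23, adjusted p = 1.02e-18). PRDM1 was at 297, 174 and 248 against 11.4, 0 and 4.14 (5.40 ± 0.41, adjusted p = 4.71e-12).

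Most tested genes of the secretory lists were higher than in pre-B cells. ER folding genes were higher in 25 of 26 (median 3.59), translocon genes in 19 of 20 (median 2.86), N-glycosylation genes in 14 of 18 (median 2.55), degradation genes in 13 of 17 (median 2.03) and ER to Golgi genes in 23 of 29 (median 1.60), with none lower. Amino acid supply had 5 of 19 higher (1 of 20 without marrow 2, where 515 of all 4332 tested genes were higher) and 1 lower. The latter was ASNS, asparagine synthetase, at 16.0, 11.8 and 7.74 against 407, 196 and 83.4 (-4.16 ± 0.44, adjusted p = 4.92e-09). The rearrangement enzymes were at 0 in plasma cells: DNTT, which adds bases at the joins, had no UMI against 1526 in pre-B cells (at least 65.1-fold lower), and RAG1, a subunit of the recombinase, none against 272 (at least 11.6-fold lower). PAX5 was at 0 against 2852 UMIs, at least 122-fold lower, and EBF1, a B lineage factor, at 0 against 369, at least 15.7-fold lower. Mitosis genes were lower in 40 of 43 (median -3.29, or -3.27 with genes at 0 at their bounds) and replication genes in 18 of 22 (median -2.52).

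Cells positive for FLT3, IRF8 and TCF4 were the third comparator, since plasmacytoid dendritic cells share secretory features and several regulators with plasma cells. Marrow 3 had 7 such cells and did not enter, so 2 marrows with 16 and 17 cells gave the test, which leaves 1 residual degree of freedom. The p-values of this comparison therefore rest mostly on the spread pooled over genes and do not measure the spread between these 2 dogs. In these cells IL3RA was at 0 in marrow 2, and they carried TLR9, RUNX2 and BCL11A. Of 3295 genes 1017 (30.9%) passed, 533 (16.2%) higher and 484 (14.7%) lower in plasma cells. DESeq2 gave 211 and 88, and without TMM the split was 169 and 1779, with a median of -1.28 in place of -0.08.

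TNFRSF17, POU2AF1 and PRDM1 had no UMI in these 33 cells and were at least 201-fold, 155-fold and 77.4-fold higher in plasma cells. By DESeq2, TNFRSF17 and PRDM1 did not pass (adjusted p = 0.0529 and 0.106). XBP1 was at 148 and 264 in plasma cells of marrows 1 and 2 and at 8.61 and 10.8 in the others (4.36 ± 0.49, adjusted p = 6.21e-17). ER folding genes were higher in 25 of 28 (median 2.61), translocon genes in 17 of 19 (median 2.28) and N-glycosylation genes in 15 of 18 (median 1.70). MAN1A1 was at 1638 and 573 against 34.4 and 8.996 (5.71 ± 0.36, adjusted p = 1.04e-51). NUPR1, a stress-induced nuclear protein, was at 113 and 348 in plasma cells and had no UMI in the others. LTB, IL7R, the receptor for interleukin 7, and CCND1, a cyclin of entry into the cycle, had no UMI in plasma cells and were at least 66.7-fold, 30.9-fold and 31.2-fold lower. All 6 tested MHC class II genes were lower (median -2.50, or -2.01 with genes at 0 at their bounds), and mitosis genes were lower in 36 of 39. Neutrophil marker genes summed to 11528 to 15403 in plasma cells against 275 to 278 here, and 4 of the 6 tested passed. With cells of 1% or more neutrophil transcripts left out, 1074 of 3334 genes passed, 26 of 28 ER folding genes were higher (median 2.63) and 6 of 6 MHC class II genes lower (median -2.67).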

How the data were processed

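Transcripts were measured in 5 droplet (10x) libraries, and the deposited matrices hold raw UMI counts per gene and barcode, which the authors made with Cell Ranger (7.0.1 per the file headers, 7.1.0 per the submitters' processing notes) on CanFam 3.1, per the submitters' processing notes. The files list 20257 features, of which 4432 have no gene name. Counts of each class were summed per marrow and tested in edgeR 4.0.16 (TMM, filterByExpr, robust quasi-likelihood, Benjamini-Hochberg at 0.05). The marrow was a block, since both sums come from the same dog. Same-dog deviations correlated at 0.31, 0.19 and 0.14 for B cells and 0.28, 0.092 and 0.14 for pre-B cells. Between dogs they ran from -0.217 to 0.084 for B cells and from -0.213 to 0.109 for pre-B cells. The 0.109, of marrow 2 plasma cells with marrow 3 pre-B cells, lay above the same-dog 0.092 of marrow 2. The design asked for sums of 20 or more cells, which could not be fitted, so sums of 10 or more were used. DESeq2 1.42.0 was an alternative. Recovery was read on simulated counts with genes changed by 2 or 3 on the log2 scale. The B cell comparison recovered 89.7% of 78 and 100% of 76 such genes, among 2596 tested. These shares were 84.2% of 76 and 100% of 79 for pre-B cells (3926 tested). For the third comparator they were 68.1% of 94 and 90.4% of 94 (3000 tested). The simulation gave every gene the same spread, had no dog effect and changed only genes above a minimum count. Recovery at the spread of the real counts was not tested.

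Members, gene lists, the rules for classes and the tests were chosen with earlier results of these data known. Named genes are, per comparison, the 12 largest called rises and the 12 largest called falls with at least 20 UMIs, the plasma cell markers, and up to 6 genes of each list. HSPA5, HSP90B1 and CD79A were added after their values were seen. Shares of cells with a UMI were read after thinning each cell to 1000 UMIs, doublets were called with Scrublet in scanpy 1.11.5 at 0.8% per 1000 barcodes, and only whole-marrow libraries entered tests. JCHAIN, MZB1, MS4A1, FLT3 and VPREB1 served in the gates and have no test in the text.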

Additional observations from a re-analysis of the deposited data

How the results depend on the processing

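The number of genes called against B cells was 633. It was 331 with no replicate block, so without the pairing by dog, 323 with DESeq2, 1356 without TMM and 193 to 430 with 1 marrow left out. At 1000 UMIs per cell it was 88, but only 388 genes could be tested there, against 2563. Against pre-B cells the number called was 1401 of 3714, with 913 under DESeq2, 2635 without TMM and 1299 without the block. At 1000 UMIs per cell it was 167 of 436 tested. Against FLT3, IRF8 and TCF4-positive cells it was 1017 of 3295, with 299 under DESeq2, 1948 without TMM and 766 without the block. At 1000 UMIs per cell it was 67 of 221 tested. Without TMM the medians of lists turned negative against B cells for regulators (-0.19), stress sensors (-0.012), amino acid supply (-0.73), survival (-0.43), oxidative phosphorylation (-1.02), lysosome (-0.58) and interferon response (-0.11), and TARS1 (-0.18) and YARS1 (-0.35) did too. Amino acid supply did so at -0.73 against pre-B cells and -0.34 against the third comparator. At 1000 UMIs per cell stress sensors were at -0.28 against B cells and regulators at -0.16 against pre-B cells. With no filter on low counts survival was at -0.19, oxidative phosphorylation at -0.10, interferon response at -1.64 and immediate early genes at 0.64 against B cells, and survival ran from -0.15 to 0.56 with 1 marrow left out. The cause was not tested.

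The share of plasma cells in marrow 1 was 0.0506% with at most 5% mitochondrial UMIs, 0.339% with no such limit, 0.507% with no MZB1 limit, 0.343% with MS4A1 allowed, and 0.0960% and 0.260% with JCHAIN at 0.5% and 0.1%. In marrow 2 it was 0.279% with the 5% limit and 1.11% with MS4A1 allowed. In marrow 3 it was 0.0691% with JCHAIN at 0.5%, 0.0979% with the 5% limit and 0.484% with MS4A1 allowed. Tests with JCHAIN at 0.5%, with the 5% mitochondrial limit and with sums of 20 or more cells were not run, since too few sums remained, nor was leaving out a marrow against the third comparator. Of the named genes' calls 27 were lost without marrow 3, 16 without marrow 1 and 14 without marrow 2. With no replicate block 17 were lost against B cells, 3 against pre-B cells and 3 against the third comparator, and with DESeq2 6, 2 and 15. With 12, 34 and 12 cells, genes of low level could not be tested, and a plasma cell sum of marrow 2 rests on more cells than the others. The settings on neutrophil transcripts, on antibody-rich B cells and on the mitochondrial limit in the tests were added after the data were seen.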

Other observations

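CCR10, a chemokine receptor of plasma cells that home to mucosal sites, had a UMI in 16 of the 58 plasma cells, 1, 12 and 3 in marrows 1, 2 and 3, at 14.2, 39.5 and 12.4 UMIs per 1000000. TNFRSF13B (TACI), a receptor for survival ligands of the BAFF family, was at 21.4, 95.2 and 83.5 UMIs per 1000000 in plasma cells and at 22.3, 10.1 and 15.1 in B cells. Thinned to 1000 UMIs, 0, 1 and 2 plasma cells of the 3 marrows had a TNFRSF13B UMI, so its order between marrows was not detectable at that depth.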
